A study of Mus musculus with 8 samples.

Results

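The 10 genes described here are the Wnt ligands *Wnt2*, *Wnt5a*, *Wnt5b* and *Wnt11*, the secreted modulators *Rspo3*, *Sfrp1* and *Sfrp5*, and *Axin2*, *Nkd1* and *Lef1*, which report or carry the canonical Wnt response. They were chosen by name, as Wnt pathway genes, with earlier results of these data known. Each symbol matched 1 of the 49315 Ensembl genes listed for every library. RNA-seq measured messenger RNA from whole mouse hearts at embryonic day 9.5 (E9.5). There were 4 libraries from wild-type hearts and 4 from hearts of Tbx20EH1Mut homozygotes, and every library was made from 3 pooled hearts. The Tbx20EH1Mut allele carries amino acid substitutions in the engrailed homology (EH1) domain of the T-box transcription factor Tbx20, the stretch through which Tbx20 binds TLE co-repressors. The allele is present in every cell of the embryo, so a change in a heart is not tied to 1 cell type by its genetics.

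Wnt proteins are secreted ligands that bind Frizzled receptors. In the canonical branch, the signal stabilises beta-catenin, which enters the nucleus and works with TCF/LEF factors on target genes. *Axin2* and *Nkd1* are such targets, and their proteins dampen the pathway in turn. In the non-canonical branch, ligands such as Wnt5a and Wnt11 act on cell polarity and movement without beta-catenin, and both are known for roles in second heart field cells and the outflow tract. R-spondins strengthen the response of a cell to Wnt ligands, and secreted Frizzled-related proteins (the Sfrp family) bind Wnt ligands outside the cell.

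The total number of counted reads lay between 33359322 and 49523086 in the wild-type libraries and between 36250675 and 38357025 in the Tbx20EH1Mut libraries. *Tbx20* itself was read at a mean of 367.6 CPM (counts relative to a library size scaled across libraries) in wild-type and 267 CPM in Tbx20EH1Mut hearts (log2 fold change -0.46, standard error 0.133, adjusted p = 0.0273), and gene counts do not show whether a library carries the substitutions. Summed over 10 markers, cardiomyocyte messages reached 35712 to 41310 CPM in wild-type and 32152 to 44932 CPM in Tbx20EH1Mut libraries, and of these 10 genes 1 fell, *Myh6* (log2 fold change -1.26, adjusted p = 8.66e-04), and 0 rose. Marker counts are read against 14.0% of all genes tested called as higher and 15.3% called as lower. Of 10 foregut epithelium markers 5 rose, with sums of 190 to 295 CPM in wild-type and 655 to 892 CPM in Tbx20EH1Mut libraries, and of 8 second heart field markers 7 rose, with sums of 45.3 to 84.5 and 235 to 390 CPM. Most of the foregut sums came from *Krt8* (means of 146 CPM in wild-type and 445 CPM in Tbx20EH1Mut libraries) and *Krt18* (67.4 and 223 CPM). Of the other foregut markers only *Shh* did not overlap between the genotypes. *Epcam*, for one, was at 15.3 CPM in wild-type replicate 2 and at 10.7 CPM in Tbx20EH1Mut replicate 3. All 6 erythroid markers fell, from sums of 1758 to 4596 CPM to sums of 319 to 1025 CPM, and 3 of 8 endothelial markers rose and the other 5 were not called (sums of 642 to 827 and 833 to 913 CPM). Epicardial markers (2 of 6 tested rose) summed to 178 CPM in wild-type replicate 1 and to 58.7 to 83.3 CPM in the other wild-type libraries, against 128 to 165 CPM in Tbx20EH1Mut libraries. Wild-type replicate 1 and Tbx20EH1Mut replicate 3 deviated from the mean of their genotype in like ways, with a correlation of 0.663 across 10948 genes, which are not independent replicates. Wild-type replicate 2 and Tbx20EH1Mut replicate 1 did so at 0.566. Between wild-type libraries, the chi-square of the counts per degree of freedom was 239 for replicates 1 and 2, 130.1 and 106.6 for replicate 2 with 3 and with 4, 72.9 and 78.5 for replicate 1 with 3 and with 4, and 11.3 for replicates 3 and 4, so that both replicate 1 and replicate 2 stood apart. The values below are given without wild-type replicate 1 and Tbx20EH1Mut replicate 3, or without 1 library, where a result rests on them. Leaving out wild-type replicate 1 and Tbx20EH1Mut replicate 3 together was chosen after seeing the data. Wild-type replicate 2, which also stood apart, was kept in that fit.

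The genotypes were compared with edgeR's quasi-likelihood test on the counts of 17163 genes, and all 10 Wnt genes passed its filter on low counts. A gene was called at a Benjamini-Hochberg adjusted p of at most 0.05 over all genes tested, and every adjusted p given below comes from that test unless another is named. Of the 10 genes, 4 were called and all 4 fell in Tbx20EH1Mut hearts: the ligand *Wnt2*, the agonist *Rspo3*, the antagonist *Sfrp5* and the target *Axin2*. Over all genes tested, 29.3% were called, 14.0% as higher and 15.3% as lower. A change of at least 1 on the log2 scale was found for 3 of the 10 (*Wnt2*, *Rspo3* and *Axin2*), against 10.8% of all genes tested. The libraries of the genotypes did not overlap for 2 of the 10 (*Wnt2* and *Rspo3*), against 30.5% of all genes tested. The median log2 fold change of the 10 genes was -0.49, and that of all genes tested was 0.0048. In whole hearts, fewer cells of a type and less RNA per cell cannot be told apart.

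**Figure D1:**
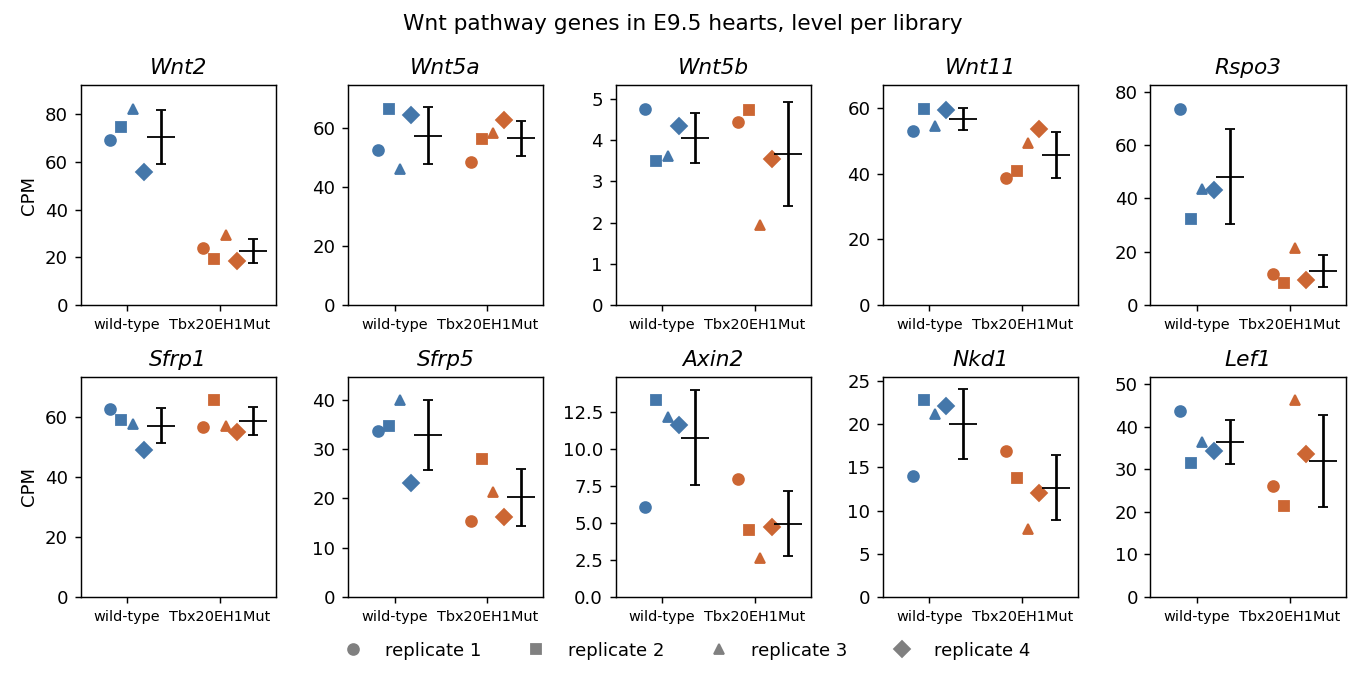
Level of each of the 10 genes in CPM (vertical axis, linear from 0, scaled for each gene) in the 4 wild-type (blue) and 4 Tbx20EH1Mut libraries (orange), with the replicate given by the marker shape and the mean and SD in black. *Wnt2* lay between 55.7 and 82.3 CPM in wild-type and between 18.4 and 29.2 CPM in Tbx20EH1Mut hearts, whereas the ranges of *Wnt5a* and *Sfrp1* overlapped.

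Among the ligands, *Wnt2* stood out. It encodes a ligand of the canonical branch that marks progenitors at the inflow end of the heart, and it lies on chromosome 6 from 17988940 to 18030585 of GRCm38, on the minus strand. Wild-type replicates 1 to 4 held *Wnt2* at 69.0, 74.6, 82.3 and 55.7 CPM, and Tbx20EH1Mut replicates 1 to 4 at 24.1, 19.2, 29.2 and 18.4 CPM. All 4 Tbx20EH1Mut libraries lay below all wild-type libraries. The mean fell from 70.4 ± 11.2 to 22.7 ± 4.98 CPM (SD, n = 4 libraries each), 3.10-fold in the fitted model (log2 fold change -1.63, standard error 0.176, 95% interval -2.02 to -1.24, adjusted p = 2.89e-04 from edgeR). The exact two-sided permutation test gave p = 0.0286 for *Wnt2*, which is as low as a design of 4 and 4 libraries can go. Without wild-type replicate 1 and Tbx20EH1Mut replicate 3 the log2 fold change of *Wnt2* was -1.77 (adjusted p = 1.51e-04), and in a fit that also held the level of foregut markers it was -1.42 (adjusted p = 0.00302). Foregut marker level largely followed genotype, which limits what this fit can separate, here and for the genes below.

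None of the non-canonical ligands was called. *Wnt5a*, on chromosome 14 from 28504750 to 28527447, was read at 52.5, 66.5, 46.2 and 64.4 CPM in wild-type and at 48.5, 56.4, 58.1 and 62.7 CPM in Tbx20EH1Mut hearts. The Tbx20EH1Mut libraries all lay inside the wild-type range. The log2 fold change of *Wnt5a* was -0.02 (standard error 0.140, 95% interval -0.33 to 0.29, adjusted p = 0.908), and its sign turned with upper-quartile scaling. *Wnt11*, on chromosome 7 from 98835112 to 98855195, was read at 52.9, 59.8, 54.5 and 59.3 CPM in wild-type and at 38.7, 41.0, 49.3 and 53.5 CPM in Tbx20EH1Mut hearts. Only the highest Tbx20EH1Mut library reached into the wild-type range. For *Wnt11* the log2 fold change was -0.31 (standard error 0.124, 95% interval -0.59 to -0.04, adjusted p = 0.0803), and the exact two-sided permutation test gave p = 0.0571. With library size alone as the scaling, its adjusted p was 0.04.

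*Wnt5b*, a close relative of *Wnt5a* on chromosome 6 from 119432531 to 119544347, was the least abundant ligand of the 4. It had 157 to 199 counts per wild-type library and 62 to 178 per Tbx20EH1Mut library. That gave 4.76, 3.48, 3.63 and 4.34 CPM in wild-type and 4.43, 4.73, 1.94 and 3.55 CPM in Tbx20EH1Mut hearts. The groups overlapped, and the lowest value was that of Tbx20EH1Mut replicate 3. Its log2 fold change was -0.14 (standard error 0.280, 95% interval -0.77 to 0.48, adjusted p = 0.725), an interval that leaves room for a change in either direction, and without wild-type replicate 1 and Tbx20EH1Mut replicate 3 it was 0.17 (adjusted p = 0.577).

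Per kilobase of exon, a scale on which genes of different length can be compared, *Wnt2* made up the largest share of the ligand messages in every wild-type library. All 19 Wnt ligand genes together reached 60.3 ± 4.58 CPM per kilobase in wild-type and 36.3 ± 1.43 in Tbx20EH1Mut hearts (SD, n = 4 each). Of this sum, *Wnt2* held 51.9%, 51.8%, 57.0% and 45.4% in wild-type replicates 1 to 4 and 28.2%, 24.7%, 35.4% and 22.7% in Tbx20EH1Mut replicates 1 to 4. The share of *Wnt2* was lower in each Tbx20EH1Mut library than in each wild-type library. *Wnt11* held 20.6% to 26.3% in wild-type and 24.6% to 35.8% in Tbx20EH1Mut hearts, and *Wnt5a* held 9.24% to 15.1% and 16.4% to 22.2%. In Tbx20EH1Mut replicates 2 and 4 *Wnt11* held more than *Wnt2* (28.7% and 35.8%). Shares are relative to a sum that was itself lower in Tbx20EH1Mut hearts, so a larger share is not a higher level, and the CPM values above give the levels.

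**Figure D2:**
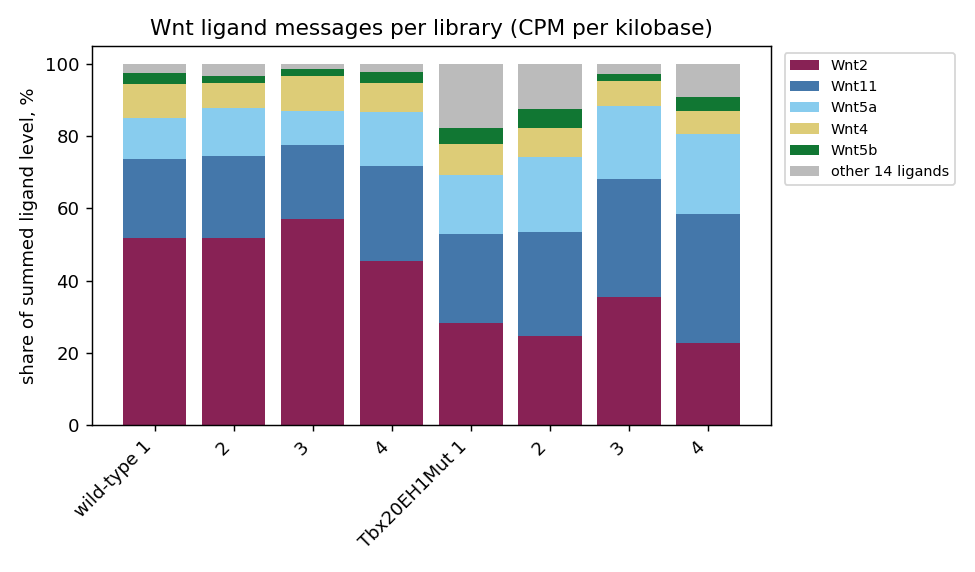
Share of each Wnt ligand in the summed level of 19 ligands per library, in percent, from CPM per kilobase of exon, with *Wnt2* at the base of each bar and the 14 ligands not named drawn together in grey. The *Wnt2* share lay between 45.4% and 57.0% in wild-type and between 22.7% and 35.4% in Tbx20EH1Mut libraries.

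*Rspo3* encodes R-spondin 3, a secreted protein that keeps Frizzled receptors at the cell surface and is needed for blood vessel development. It lies on chromosome 10 from 29452416 to 29535867, on the minus strand. *Rspo3* was read at 73.7, 32.4, 43.5 and 43.1 CPM in the wild-type libraries, in the order of their replicate numbers, and at 11.7, 8.21, 21.5 and 9.57 CPM in those of Tbx20EH1Mut hearts. Every Tbx20EH1Mut library lay below every wild-type library, and the highest value of each genotype was that of wild-type replicate 1 and Tbx20EH1Mut replicate 3. The mean fell from 48.2 ± 17.8 to 12.7 ± 6.0 CPM, 3.79-fold in the fitted model (log2 fold change -1.92, standard error 0.333, 95% interval -2.66 to -1.18, adjusted p = 0.00303 from edgeR). Without those 2 libraries the log2 fold change of *Rspo3* was -2.0 (adjusted p = 8.98e-05). With foregut marker level added to the model it was -1.08 and no longer called (adjusted p = 0.0536). In the fit with genotype alone, *Rspo3* had the largest fall of the 10 genes, but in the fit with the foregut markers those of *Axin2* (-1.75), *Wnt2* (-1.42) and *Nkd1* (-1.16) were larger. It also had the widest spread between wild-type libraries, with a coefficient of variation of 36.9%, against 16.0% for *Wnt2*.

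Of the 2 antagonists of the Sfrp family *Sfrp5* was called and *Sfrp1* was not, and the difference between their changes was not tested. *Sfrp5*, which marks inflow tract progenitors and foregut endoderm in the early embryo, lies on chromosome 19 from 42197971 to 42202252, on the minus strand. It was read at 33.6, 34.7, 39.8 and 23.0 CPM in wild-type and at 15.5, 28.0, 21.3 and 16.1 CPM in Tbx20EH1Mut hearts. Tbx20EH1Mut replicate 2 lay above wild-type replicate 4, and all other Tbx20EH1Mut libraries lay below the wild-type libraries. *Sfrp5* fell 1.62-fold (log2 fold change -0.70, standard error 0.220, 95% interval -1.19 to -0.21, adjusted p = 0.0380). The call was lost without wild-type replicate 2 or 3 or Tbx20EH1Mut replicate 1, 3 or 4 (adjusted p up to 0.108), and with foregut marker level added to the model (-0.52, adjusted p = 0.258). It was also lost without wild-type replicate 1 and Tbx20EH1Mut replicate 3 together (-0.69, adjusted p = 0.0577) and with upper-quartile scaling (-0.61, adjusted p = 0.0566).

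*Sfrp1*, on chromosome 8 from 23411502 to 23449632, was read at 62.5, 59.0, 57.6 and 48.9 CPM in wild-type and at 56.7, 65.4, 57.0 and 54.8 CPM in Tbx20EH1Mut hearts. The groups overlapped almost throughout. The log2 fold change was 0.04 (standard error 0.110, 95% interval -0.21 to 0.28, adjusted p = 0.823), with a negative sign under scaling by library size alone. Among the 10 genes, *Sfrp1* had the smallest standard error.

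*Axin2* is the most widely used readout of canonical Wnt signalling, and its protein is a scaffold of the complex that destroys beta-catenin. It lies on chromosome 11 from 108920349 to 108950783. It was counted 201 to 653 times per wild-type library and 85 to 308 times per Tbx20EH1Mut library. In CPM, wild-type replicates 1 to 4 stood at 6.10, 13.3, 12.2 and 11.6 and Tbx20EH1Mut replicates 1 to 4 at 7.98, 4.51, 2.66 and 4.74. Wild-type replicate 1 was below Tbx20EH1Mut replicate 1, and the other 3 wild-type libraries were above all Tbx20EH1Mut libraries. *Axin2* fell 2.17-fold (log2 fold change -1.12, standard error 0.336, 95% interval -1.86 to -0.37, adjusted p = 0.0322), and the exact two-sided permutation test gave p = 0.0571. The adjusted p rose above 0.05, to 0.0832 at most, when any 1 of wild-type replicates 2, 3 and 4 or Tbx20EH1Mut replicates 2, 3 and 4 was left out. Without wild-type replicate 1 and Tbx20EH1Mut replicate 3 together, the log2 fold change was -1.09 (adjusted p = 0.00542). This pair, chosen after seeing the data, included the wild-type library that lay below Tbx20EH1Mut replicate 1, so a smaller p there is no independent support. With foregut marker level, which largely followed genotype, added to the model the fall of *Axin2* was larger, at -1.75 (adjusted p = 0.0217).

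*Nkd1*, whose protein binds Dishevelled and restrains the pathway, lies on chromosome 8 from 88521354 to 88594884. It was read at 14.0, 22.7, 21.1 and 22.1 CPM in wild-type and at 16.9, 13.8, 7.91 and 12.0 CPM in Tbx20EH1Mut hearts. As for *Axin2*, wild-type replicate 1 lay inside the Tbx20EH1Mut range and the other wild-type libraries lay above it. The log2 fold change of *Nkd1* was -0.66 (standard error 0.233, 95% interval -1.18 to -0.14), and it was not called (adjusted p = 0.0561). It was called without wild-type replicate 1 and Tbx20EH1Mut replicate 3 (-0.61, adjusted p = 0.0105), without wild-type replicate 1 alone (-0.80, adjusted p = 0.0190) and without Tbx20EH1Mut replicate 1 alone (-0.82, adjusted p = 0.0369). Leaving out wild-type replicate 1 removed the wild-type library that lay inside the Tbx20EH1Mut range. With foregut marker level added to the model it was also called, at -1.16 (adjusted p = 0.026).

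*Lef1* encodes a TCF/LEF factor that is both a partner of beta-catenin and a target of the pathway, and it lies on chromosome 3 from 131110471 to 131224356. It was read at 43.7, 31.5, 36.3 and 34.2 CPM in wild-type and at 26.2, 21.4, 46.2 and 33.6 CPM in Tbx20EH1Mut hearts. The groups overlapped, and Tbx20EH1Mut replicate 3 had the highest value of all 8 libraries. Its log2 fold change was -0.19 (standard error 0.218, 95% interval -0.68 to 0.29, adjusted p = 0.522), and with foregut marker level added to the model the sign turned (0.30, adjusted p = 0.447). A predicted gene on the opposite strand shares 1208 exon bases with *Lef1*, 13.7% of its exon length, and had 179 counts over the 8 libraries against 10941 for *Lef1*.

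**Figure D3:**
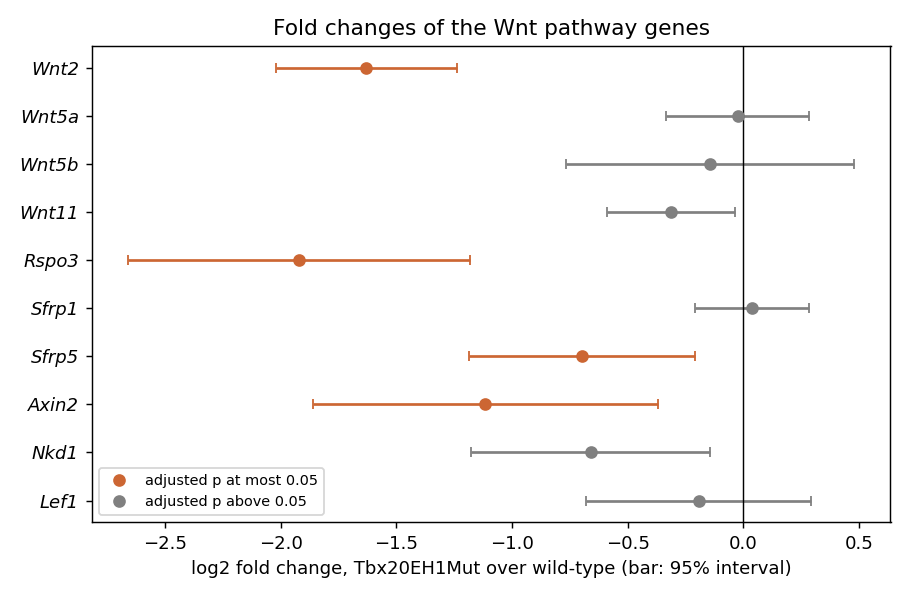
Log2 fold change of each of the 10 genes, Tbx20EH1Mut over wild-type, with the 95% interval from the edgeR fit (horizontal axis), ordered by role from ligands to targets. The intervals of *Wnt2* (-2.02 to -1.24) and *Rspo3* (-2.66 to -1.18) lie below -1, and those of *Wnt5a*, *Wnt5b*, *Sfrp1* and *Lef1* include 0.

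Non-canonical ligands and canonical targets were then set against each other in each library. The mean log2 CPM of *Wnt5a*, *Wnt5b* and *Wnt11* was 4.55 ± 0.12 in wild-type and 4.37 ± 0.16 in Tbx20EH1Mut hearts (SD, n = 4), a difference of -0.18. The mean of *Axin2* and *Lef1* was 4.28 ± 0.17 and 3.57 ± 0.24, a difference of -0.70. This difference came mostly from *Axin2*, with a log2 fold change of -1.12, against -0.19 for *Lef1*, which was not called. Within genotypes *Axin2* and *Lef1* did not vary together (correlation -0.715 over 8 libraries and -0.0314 over 6). The ligand mean minus the target mean was 0.28 ± 0.23 in wild-type and 0.80 ± 0.29 in Tbx20EH1Mut hearts. Wild-type replicate 1, at 0.54, lay above Tbx20EH1Mut replicate 1, at 0.49, so that the genotypes overlapped, and no test was made of these averages.

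The ratios to *Axin2* and those to *Lef1* are given here for each ligand, and the difference between them was not tested. The log2 ratio of *Wnt5a* over *Axin2* was 3.10, 2.32, 1.93 and 2.47 in wild-type and 2.60, 3.64, 4.44 and 3.72 in Tbx20EH1Mut replicates 1 to 4. Against *Lef1*, the log2 ratio of *Wnt5a* was 0.26, 1.08, 0.35 and 0.91 in wild-type and 0.89, 1.40, 0.33 and 0.90 in Tbx20EH1Mut hearts. *Wnt11* over *Lef1* gave mean log2 ratios of 0.65 ± 0.28 and 0.57 ± 0.35, and *Wnt5b* over *Lef1* gave -3.166 ± 0.14 and -3.135 ± 1.05. *Wnt11* over *Axin2* gave 3.11, 2.17, 2.16 and 2.35 in wild-type and 2.28, 3.18, 4.21 and 3.49 in Tbx20EH1Mut hearts, and *Wnt5b* over *Axin2* gave -0.36, -1.93, -1.74 and -1.42 and -0.85, 0.07, -0.45 and -0.42. The ratios to *Lef1* and those to *Axin2* both overlapped between the genotypes. In the ratios to *Axin2* wild-type replicate 1 was the highest wild-type value for each ligand.

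*Axin2* and *Nkd1* varied together from library to library, also within a genotype. After the mean of its genotype was subtracted from each library, the log2 CPM of *Axin2* and *Nkd1* correlated at 0.967 over the 8 libraries. Both were lowest in wild-type replicate 1 (-0.76 for *Axin2* and -0.49 for *Nkd1*) and in Tbx20EH1Mut replicate 3 (-0.79 and -0.62). *Rspo3* and *Lef1* (correlation 0.851) went the other way, with *Rspo3* at 0.68 and *Lef1* at 0.27 in wild-type replicate 1 and at 0.86 and 0.60 in Tbx20EH1Mut replicate 3. Between *Lef1* and *Nkd1* the correlation was -0.861, and between *Rspo3* and *Nkd1* it was -0.823. The opposition of *Rspo3* to *Nkd1* rested on wild-type replicate 1 and Tbx20EH1Mut replicate 3. Over the other 6 libraries, centred anew, *Rspo3* and *Nkd1* correlated at 0.336, *Lef1* and *Nkd1* at -0.497, and *Rspo3* and *Lef1* at 0.452, while *Axin2* and *Nkd1* stayed at 0.861. *Sfrp1* and *Sfrp5* correlated at 0.83 over 8 and 0.947 over 6 libraries, and *Wnt5a* and *Wnt11* at 0.713 and 0.703. All these correlations are descriptions over the same libraries, which share their depth and their tissue content, and 45 pairs were looked at.

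**Figure D4:**
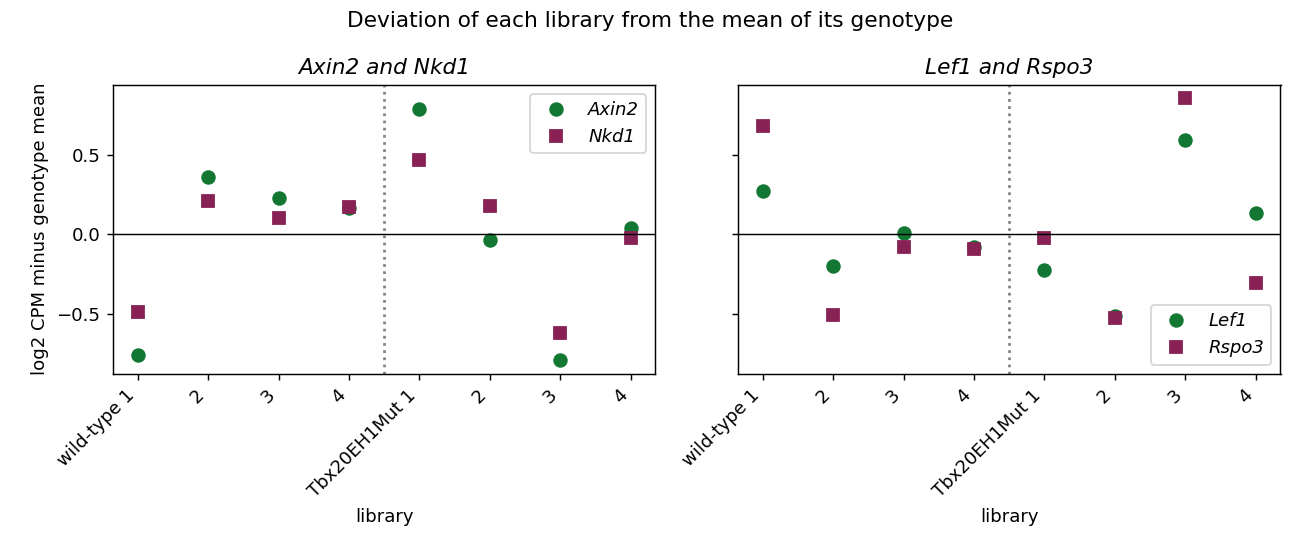
Deviation of each library from the mean of its genotype on the log2 CPM scale (vertical axis) for *Axin2* and *Nkd1* on the left and *Lef1* and *Rspo3* on the right, with the 4 wild-type libraries before the dotted line and the 4 Tbx20EH1Mut libraries after it. Wild-type replicate 1 and Tbx20EH1Mut replicate 3 are lowest on the left (-0.76 and -0.79 for *Axin2*) and highest on the right (0.68 and 0.86 for *Rspo3*), and without them *Rspo3* and *Nkd1* no longer go opposite ways (correlation 0.336).

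In the order of levels per kilobase, wild-type hearts had *Wnt2* first at 31.2 ± 4.98 CPM per kilobase, and its range did not overlap with that of *Sfrp5*, the next gene, at 17.3 ± 3.72. *Sfrp5*, *Rspo3* (15.6 ± 5.75), *Wnt11* (13.7 ± 0.83) and *Sfrp1* (13.0 ± 1.32) followed with overlapping ranges between neighbours. *Wnt5a* (7.34 ± 1.24) stood apart from its neighbours on both sides. *Nkd1* (4.39 ± 0.89) and *Lef1* (4.15 ± 0.59) overlapped, as did *Axin2* (1.96 ± 0.58) and *Wnt5b* (1.53 ± 0.23). In Tbx20EH1Mut hearts the first places went to *Sfrp1* (13.4 ± 1.08), *Wnt11* (11.0 ± 1.68), *Sfrp5* (10.6 ± 3.05) and *Wnt2* (10.1 ± 2.21), each overlapping with the next. *Wnt5a* (7.22 ± 0.75) did not overlap with *Wnt2* above it. *Rspo3* (4.12 ± 1.94) was in sixth place and *Axin2* (0.90 ± 0.40) in the last.

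Promoter sequences from RefSeq (GRCm38.p6) were set beside the levels for 7 of the 10 genes, each reaching from 250 bases before a start site to its first 50 bases. There were 13 such promoters for the 7 genes. *Wnt5a*, *Sfrp1* and *Rspo3* had no entry. The letters CTTTGAA and CTTTGAT, which TCF/LEF factors are known to bind, were searched on both strands. They were found in 2 of the 13 promoters, in the first promoter of *Wnt11* and in an internal promoter of *Wnt5b*, against 8.65% of 32851 promoters of the same length. The T-box letters AGGTGTGA were found in 0 of the 13 and in 1.28% of all promoters. Shown here are the promoter of *Axin2*, the canonical target that fell, that of *Wnt2*, the ligand that fell, and the first promoter of *Wnt11*, a non-canonical ligand that was not called. Capitals mark the match in *Wnt11*, which reads CTTTGAT on the opposite strand and begins at -51 relative to the start site. A match in letters is a description of the sequence, and the lack of one says only that these letters are not in this window.
Axin2, chr11:108920099-108920398, plus strand: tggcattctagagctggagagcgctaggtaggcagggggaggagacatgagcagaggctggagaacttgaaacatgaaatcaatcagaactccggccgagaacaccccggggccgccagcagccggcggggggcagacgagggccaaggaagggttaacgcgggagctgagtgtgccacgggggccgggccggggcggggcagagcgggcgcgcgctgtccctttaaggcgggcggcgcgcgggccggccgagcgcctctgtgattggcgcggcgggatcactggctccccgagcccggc
Wnt2, chr6:18030396-18030695, minus strand: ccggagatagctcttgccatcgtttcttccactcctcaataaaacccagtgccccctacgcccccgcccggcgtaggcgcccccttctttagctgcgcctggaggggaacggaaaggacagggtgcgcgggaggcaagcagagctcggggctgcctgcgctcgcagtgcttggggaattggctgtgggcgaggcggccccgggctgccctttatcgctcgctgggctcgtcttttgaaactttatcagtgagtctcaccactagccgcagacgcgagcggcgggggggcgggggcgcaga
Wnt11, chr7:98834862-98835161, plus strand: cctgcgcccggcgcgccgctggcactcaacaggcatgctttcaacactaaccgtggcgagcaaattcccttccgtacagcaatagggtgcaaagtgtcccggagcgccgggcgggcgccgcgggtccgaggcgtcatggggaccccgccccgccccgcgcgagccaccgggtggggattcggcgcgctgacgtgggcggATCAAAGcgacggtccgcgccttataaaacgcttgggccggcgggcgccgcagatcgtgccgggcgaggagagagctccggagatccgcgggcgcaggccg

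The rest of the pathway moved in both directions. A wider list held 87 further Wnt genes, of which 73 passed the filter, and 27 of these were called (37%, against 29.3% of all genes tested), 15 as higher and 12 as lower. The median log2 fold change of the 73 genes was 0.08. Of 19 ligands 9 were tested, and beside *Wnt2* there fell *Wnt4* (log2 fold change -0.91, adjusted p = 0.0039). *Wnt4* lay between 18.2 and 26.1 CPM in wild-type and between 9.70 and 13.9 CPM in Tbx20EH1Mut hearts. One ligand rose, *Wnt6* (3.54, adjusted p = 0.0176), an epithelial Wnt gene with 3 to 60 counts in wild-type and 24 to 422 in Tbx20EH1Mut libraries, lowest among the latter in replicate 3. The mean log2 CPM of the foregut markers, the covariate of the fits given here, was -0.27, 3.21, -1.40 and 1.19 in wild-type and 5.04, 4.77, 2.92 and 4.26 in Tbx20EH1Mut replicates 1 to 4. It largely followed genotype, since wild-type replicate 2 alone reached into the Tbx20EH1Mut range, and this limits what those fits can separate. *Wnt1* and *Wnt3a* had 0 counts in all 8 libraries. Both genes of ligand secretion rose (14.0% of all genes tested), *Porcn* (0.69), whose product attaches the lipid that Wnt proteins need, and *Wls* (0.48), which carries them to the cell surface.

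Among 16 receptors and co-receptors, all tested, 2 rose and 2 fell, a share of calls not above the 29.3% of all genes, and their median log2 fold change was 0.06. *Fzd1* went from 26.2 to 41.4 CPM in wild-type to 89.6 to 103 CPM in Tbx20EH1Mut hearts (log2 fold change 1.53), and *Fzd2* rose by 0.41. *Fzd2* had the highest level per kilobase of the receptors, at 33.5 CPM per kilobase in wild-type and 44.6 in Tbx20EH1Mut hearts. The falls were those of *Fzd10* (-2.05) and *Fzd9* (-1.38). Of the 10 tested antagonists 4 rose (14.0% of all genes tested) and *Sfrp5* alone fell. The rises were led by *Wif1* (3.38), a secreted Wnt binder with only 1 to 8 counts per wild-type and 17 to 32 per Tbx20EH1Mut library, and *Frzb* (1.34), another Frizzled-related protein. In the R-spondin axis, 3 of 8 tested genes were called (29.3% of all genes tested): *Rspo2* (2.48) and the R-spondin receptor *Lgr4* (0.44) rose and *Rspo3* fell. *Rspo2* was far below *Rspo3*, at 0.14 against 15.6 CPM per kilobase in wild-type and 0.80 against 4.12 in Tbx20EH1Mut hearts.

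Inside the cell, 4 of 10 genes of the cytoplasmic relay fell (15.3% of all genes tested) and 0 rose (14.0%), with a median of -0.13 and with *Dvl3* (-1.27), a Dishevelled gene, and *Axin1* (-0.73), the constitutive relative of *Axin2*, in front. Of 8 TCF/LEF factors and partners 3 rose (14.0% of all genes tested) and 0 fell, with a median of -0.03. The rises were led by *Pygo1* (1.24), a beta-catenin co-activator, and *Tcf7l2* (0.89), and *Lef1* was not among them. The highest level per kilobase in this list was that of *Pygo2*, at 24.3 CPM per kilobase in wild-type and 25.8 in Tbx20EH1Mut hearts (log2 fold change 0.08, not called). Of 15 tested feedback genes and targets 2 rose, *Dkk1* (1.02) and *Myc* (0.74), and 3 fell, *Apcdd1* (-2.29), *Ccnd1* (-1.53) and *Axin2*, a share of calls near the 29.3% of all genes. The other 10, *Nkd1* and *Lef1* among them, were not called, and the median of the 15 was -0.12. Among 12 planar polarity genes 3 were called, below the 29.3% of all genes, and all 3 fell, led by *Celsr1* (-1.27) and *Celsr2* (-0.75). The median of the 12 was -0.02.

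Of the 27 called genes of the wider list, 15 were called in every fit that left out 1 library and 12 lost the call in at least 1. *Dvl3* lost it most often. It was read at 14.2, 72.6, 34.9 and 33.1 CPM in wild-type and at 19.3, 19.3, 12.7 and 13.0 CPM in Tbx20EH1Mut hearts. Without wild-type replicate 2 its log2 fold change was -0.76, and of the 8 fits that left out 1 library only the one without wild-type replicate 1 called it. *Axin1* lost its call without wild-type replicate 2, 3 or 4 or Tbx20EH1Mut replicate 3 or 4, and *Dkk1* without wild-type replicate 2, 3 or 4 or Tbx20EH1Mut replicate 1 or 4. *Celsr2* lost it without wild-type replicate 2 or Tbx20EH1Mut replicate 2, 3 or 4, and *Tcf7l2* without wild-type replicate 3 or 4 or Tbx20EH1Mut replicate 4. For *Porcn* and *Lgr4* it was lost without replicate 4 of either genotype, for *Fzd2* without wild-type replicate 3 or Tbx20EH1Mut replicate 4, and for *Wnt6* without wild-type replicate 4 (adjusted p at most 0.0541 for *Wnt6* and 0.103 for *Dvl3*). The other 3 of the 12 were *Dvl1* (adjusted p up to 0.11), *Dkk2* (0.0983) and *Vangl1* (0.063), named here for losing the call. Without wild-type replicate 2, which held the most counts of both among the wild-type libraries, the log2 fold change was 4.76 for *Wnt6* and 4.41 for *Wif1*.

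With foregut marker level added to the model, the rise of *Wnt6* shrank to 0.14 (adjusted p = 0.90). *Wnt4* (-0.64), *Wif1* (2.5), *Rspo2* (2.32), *Fzd2* (0.34), *Porcn* (0.57) and *Dkk1* (0.75) were, of the genes named, then no longer called either, with adjusted p from 0.0517 for *Wif1* to 0.282 for *Dkk1*. In the same fit the changes of other named genes were over 1.5 times as large, those of *Dvl3* (-2.22), *Axin1* (-1.31), *Ccnd1* (-2.60), *Celsr1* (-2.13), *Celsr2* (-1.25), *Tcf7l2* (1.47), *Dvl1* (-1.0), *Vangl1* (-0.99) and *Dkk2* (2.19), and all of these were called.

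**Figure D5:**
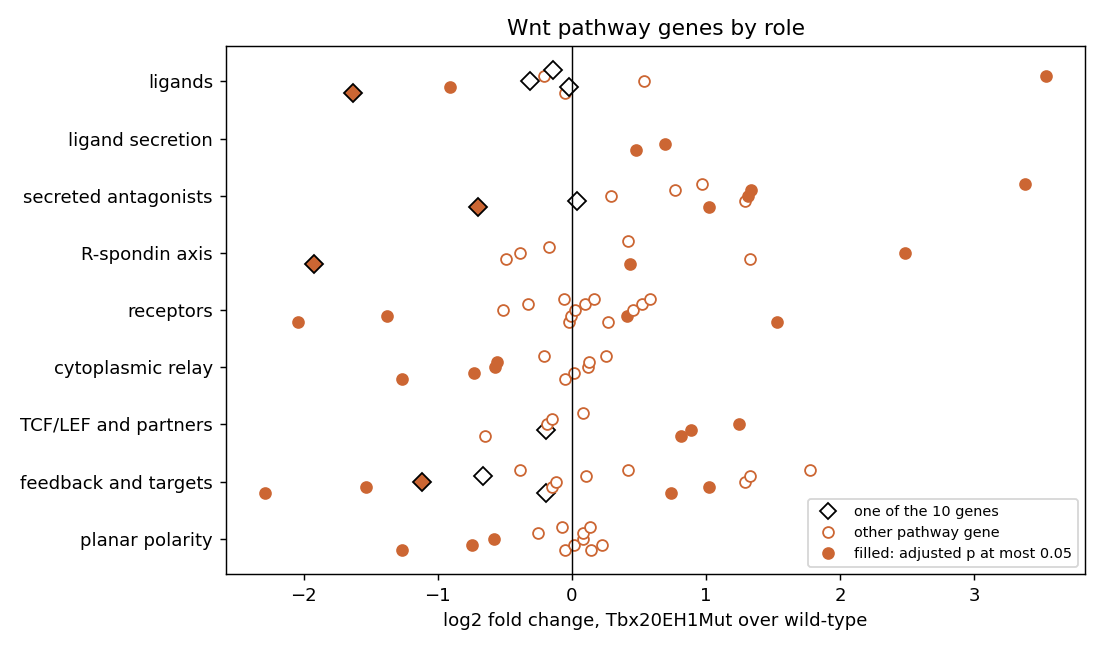
Log2 fold change, Tbx20EH1Mut over wild-type, of the tested Wnt pathway genes (horizontal axis) arranged by role, with diamonds for the 10 genes described here, circles for the others and filled symbols for an adjusted p of at most 0.05. A gene with several roles is drawn once in each, points are offset vertically for legibility, and *Wnt6* (3.54) and *Wif1* (3.38) lie farthest to the right.

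Across the 73 tested genes of the wider list, those with levels most like *Axin2* over the 8 libraries were *Apcdd1* (Pearson correlation of log2 CPM 0.935), *Axin1* (0.923) and *Fzd10* (0.903). Within genotypes, after each genotype mean was subtracted, the same correlations were 0.883, 0.818 and 0.828, and without wild-type replicate 1 and Tbx20EH1Mut replicate 3 these were 0.467, 0.288 and 0.775 within genotypes and 0.926, 0.858 and 0.95 over all 6 libraries. For *Lef1* they were *Pygo2* (0.794 over all 8 libraries), *Gsk3b* (0.628) and *Btrc* (0.619), and without those 2 libraries they were 0.648, 0.24 and 0.192. Within genotypes, *Lef1* and *Pygo2* correlated at 0.967 over 8 and at 0.918 over 6 libraries. *Wnt5a* was most like *Tcf7* (0.70), *Prickle1* (0.644) and *Daam1* (0.628), and *Wnt11* was most like *Prickle2* (0.746), *Fzd9* (0.716) and *Vangl1* (0.691). Over the 8 libraries the likeness of *Wnt11* and *Fzd9* lay between genotypes, since it was -0.0084 within them. That of *Wnt11* and *Vangl1* was 0.258 within them. Without wild-type replicate 1 and Tbx20EH1Mut replicate 3, *Wnt11* correlated with *Prickle2*, *Fzd9* and *Vangl1* at 0.769, 0.804 and 0.862, and within genotypes at 0.767, 0.186 and 0.547. *Wnt5a* then correlated with *Tcf7*, *Prickle1* and *Daam1* at 0.683, 0.72 and 0.632. These genes were picked as the highest of 73 and share their libraries, so the values are descriptions.

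The falls in *Wnt2*, *Rspo3*, *Sfrp5* and *Axin2* stood beside higher second heart field, foregut and endothelial marker sums and lower erythroid marker sums in the same Tbx20EH1Mut libraries. The part of the second heart field, endothelial, epicardial and erythroid markers in the results was not tested. For the foregut markers, the fits that held their level are limited in what they can separate, since that level largely followed genotype.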

How the data were processed

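For each library the authors deposited raw, unnormalized counts of reads or fragments per Ensembl gene, beside the position and exon length of each gene. RNA was poly-A selected and each library came from 3 pooled hearts. The submitters' processing notes name STAR 2.5.2b and Trimmomatic 0.36. The counting tool and strand setting are not given in the sources used here, so reads of overlapping genes are uncertain. Symbols were matched by identifier to GENCODE M21 (GRCm38) for 48970 of 49315 genes.

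Counts were analysed with edgeR 4.0.16 in R 4.3.3, using filterByExpr, TMM scaling, and glmQLFit and glmQLFTest with genotype alone in the model. The Benjamini-Hochberg adjustment ran over 17163 genes. CPM are counts set against the TMM-scaled library size, and log2 CPM used a prior count of 0.5. Exact permutation tests ran over 70 arrangements. Within each genotype, every library differed from every other beyond sampling noise. Pools are separate samples, but nothing says that they came from separate litters. The p-values set the genotype difference against the spread between these libraries, which may lack the spread between litters. The fit was tested on simulated counts of 16831 genes, 200 of them changed, and recovered 60.2% of the changes of 1 and 87.5% of those of 2 on the log2 scale, with 5.63% false calls. The simulated libraries varied independently, whereas in the data 29.3% of genes were called and libraries shared deviations. These rates need not hold for the data. Alternatives were other scalings, DESeq2 1.42.0, limma-voom (limma 3.58.1), other filters, a replicate block, a foregut marker covariate and leaving out libraries. Depth was 33359322 to 49523086 counts per library.

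The 10 genes, the lists and the tests were chosen with earlier results of these data known. Named from the wider lists were the 2 largest called rises and falls per list, and for receptors and TCF/LEF factors the gene highest per kilobase. Predicted genes on the opposite strand share exon bases with *Wnt5a*, *Wnt11*, *Axin2*, *Lef1* and *Rspo3*.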

Additional observations from a re-analysis of the deposited data

How the results depend on the processing

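The call of *Wnt2* held under all 9 alternatives with 8 libraries and in all 8 fits that left out 1 library (adjusted p at most 0.00302). Leaving out 1 library gave 2 to 5 called genes of the 10 (4 with all libraries), 17 to 28 of the 73 wider Wnt genes (27) and 3001 to 6586 of all genes (5024), the lowest counts of all genes without wild-type replicate 3 or 4 or Tbx20EH1Mut replicate 4 (3061, 3001 and 3028). The count of 10 was 2 without wild-type replicate 2 or 3 or Tbx20EH1Mut replicate 3 or 4, and the count of wider genes was 17 without replicate 4 of either genotype. The cause was not tested, beside the smaller number of libraries. Signs of genes that were not called turned for *Wnt5a* with upper-quartile scaling (0.064) and between -0.12 and 0.065 on leaving out 1 library, for *Wnt5b* between -0.29 and 0.071, for *Sfrp1* between -0.036 and 0.079 and with library size alone (-0.022), and for *Lef1* with the foregut covariate (0.30). Leaving out wild-type replicate 1 and Tbx20EH1Mut replicate 3 together, an alternative chosen after seeing the data, as were the refits of single wider genes, gave 4 called genes, with *Wnt5b* at 0.17 and *Sfrp5* no longer called (adjusted p = 0.0577). *Sfrp5* was also not called with upper-quartile scaling (adjusted p = 0.0566). *Nkd1* was called with DESeq2, limma-voom, the filter of at least 1 count and the foregut covariate (adjusted p = 0.0255, 0.046, 0.0481 and 0.026), and the last moved its log2 fold change to -1.16 and that of *Axin2* to -1.75. Upper-quartile scaling raised the share of higher calls over all genes from 47.9% to 58.9%.

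The replicate numbers did not pair the libraries, since same-numbered deviations correlated at -0.51, 0.453, 0.0875 and 0.132 across genes, and no wild-type library correlated best with its own number. With a replicate block, 3 of the 10 genes, 24 wider genes and 3945 of all genes were called, and *Axin2* was at -1.18 (adjusted p = 0.0664). *Porcn*, *Fzd2* and *Dvl3* of the wider list also lost their call with this block (adjusted p = 0.0523, 0.0538 and 0.0609). *Wnt5b* and *Axin2* had the fewest counts of the 10, and the standard errors of *Axin2* and *Rspo3* were the largest.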
